A study of Mus musculus with 24 samples.

Results

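The 9 genes described here encode parts of the complement system and were chosen by symbol from a gene count table: C1qa, C1qb, C1qc, C1ra, C1s1, C4b, C3, Serping1 and C3ar1. They are 9 of the 52997 gene symbols in the table, and all 9 were among the 16263 that passed the filter on low counts. Their RNA was followed in 4 kinds of cell sorted from the hindlimb muscle of 8-week-old C57BL/6 mice, either uninjured or 1 day after cardiotoxin, a membrane-damaging toxin of cobra venom that kills muscle fibres. The sorts took CD45+ cells, which are hematopoietic, CD31+ cells, which are endothelial, mesenchymal stromal cells (MSC, sorted as CD45-CD31-Sca1+PDGFRa+) and satellite cells, the stem cells of muscle (MuSC, sorted as CD45-CD31-Sca1-Vcam1+). Each of the 8 groups had 3 libraries, made from about 1000 sorted cells each. All mice were of one strain with no stated genetic change, and the uninjured groups were labelled only as uninjured. The CD45+ gate takes all leukocytes together, so macrophages, monocytes, neutrophils and lymphocytes were not separated. The labels call the libraries biological replicates without saying whether each came from its own animal, so the p-values cover only the variation among these libraries, which may be technical.

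Complement is a set of blood and tissue proteins that mark cells, debris and microbes for removal. In the classical pathway, the recognition molecule C1q (built from the products of C1qa, C1qb and C1qc) carries the proteases C1r and C1s, which cut C4 and C2, and the resulting enzyme cuts C3, the protein on which all complement pathways meet. Serping1 encodes C1 inhibitor, which blocks C1r and C1s, and C3ar1 encodes the receptor for C3a, the small fragment released from C3. The liver supplies most of the complement in blood, and macrophages are the usual source of C1q in tissues.

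In the GENCODE annotation of mouse build GRCm38, C1qa (chr4:136895917-136898803), C1qc (chr4:136889804-136893065) and C1qb (chr4:136880129-136886187) lay side by side on the minus strand, with gaps of 2851 and 3616 bases. C1ra (chr6:124512405-124523443, plus strand) lay 6901 bases from C1s1 (chr6:124530345-124542359, minus strand), and C3ar1 (chr6:122847138-122856161, minus strand) was on the same chromosome. C3 (chr17:57203970-57228136) and C4b (chr17:34728380-34743882) were both on the minus strand of chromosome 17, and Serping1 was at chr2:84765387-84775444, minus strand. All 9 are protein-coding genes. Gene levels below are sums of reads over a gene, so no exon or untranslated region is told apart.

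The stretches of DNA just before the start sites of 4 members are shown because C1qb and C1qc were high in the same CD45+ libraries, while C3 and C3ar1 were the members that rose there after injury. They come from RefSeq's table for GRCm38.p6, which had entries for 6 of the 9 members. Each is written 5′ to 3′ on the gene's own strand (minus in all 4) and ends 1 base before the RefSeq start, except that bases lying inside the GENCODE gene were left off. The windows are chr4:136886201-136886450 for C1qb, chr4:136893066-136893164 for C1qc, chr17:57228137-57228386 for C3 and chr6:122856162-122856407 for C3ar1. Capitals mark matches to a searched motif on either strand.
C1qb: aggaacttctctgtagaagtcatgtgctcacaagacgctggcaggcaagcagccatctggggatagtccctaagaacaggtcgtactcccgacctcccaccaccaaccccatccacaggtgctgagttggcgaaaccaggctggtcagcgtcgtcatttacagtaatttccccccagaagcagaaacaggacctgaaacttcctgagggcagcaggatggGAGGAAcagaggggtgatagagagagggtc
C1qc: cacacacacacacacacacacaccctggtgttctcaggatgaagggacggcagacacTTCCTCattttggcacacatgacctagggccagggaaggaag
C3: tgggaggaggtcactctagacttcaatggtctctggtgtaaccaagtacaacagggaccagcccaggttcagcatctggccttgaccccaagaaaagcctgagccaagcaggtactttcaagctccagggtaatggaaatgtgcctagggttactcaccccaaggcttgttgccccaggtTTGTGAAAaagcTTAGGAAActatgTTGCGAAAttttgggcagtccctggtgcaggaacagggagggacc
C3ar1: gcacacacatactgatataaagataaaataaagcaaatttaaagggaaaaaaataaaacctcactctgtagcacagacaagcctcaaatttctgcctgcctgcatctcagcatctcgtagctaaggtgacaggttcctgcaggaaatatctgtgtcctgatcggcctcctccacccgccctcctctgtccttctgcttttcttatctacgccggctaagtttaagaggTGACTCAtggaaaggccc

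Motifs were searched in the 250 bases before each RefSeq start. The C1qb window held 1 match to GAGGAA, the core bound by PU.1 (a transcription factor of myeloid cells), at position -30 counted from the start, and the C1qc window held the same motif on the other strand, TTCCTC, at -193. Of all 32851 windows in the table, 23.25% held it. The windows of C3ar1, C1ra, C1s1 and C3 held no match to it. The C3 window held 3 matches to TTNNGNAA, a C/EBP motif, at -70, -58 and -45, and 36.85% of all windows held at least 1. Matches to this motif also lay in the windows of C1qc (at -81), C1ra (at -72 and -29) and C1s1 (at -242 and -52 from the start of 1 of its 2 entries, and at -90 from that of the other). The C3ar1 window held 1 match to TGANTCA, the AP-1 motif, at -22, and 6.749% of all windows held it. The interferon-stimulated element, which is GAAA, any 2 bases and GAAA again (2.977% of windows), and the gamma-activated site TTCNNNGAA (7.02%) matched in none of the 6 members' windows, and the kappa B motif (3.899%) matched only in C1qc, at -41. The C1qc matches at -81 and -41 and the C1ra matches at -72 and -29 lay inside the GENCODE genes. The searched motifs can overlap one another, and a match says only that these letters are present.

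Levels are given as CPM, each gene's count over the library's total count and TMM factor. The libraries held between 2301202 and 7649841 counts, so that 3 counts correspond to between 0.389 and 1.02 CPM. Changes were tested with edgeR's quasi-likelihood test across all genes, and a gene was called at a Benjamini-Hochberg adjusted p below 0.05. Every SE of a log2 fold change given here was derived from the test statistic and is approximate. The sorted populations carried their own markers: the summed level of 10 leukocyte markers was between 26553 and 35209 CPM in CD45+ libraries and at most 291.5 CPM elsewhere, and that of 10 endothelial markers was between 12169 and 16395 CPM in CD31+ libraries and at most 178.3 CPM elsewhere. A few libraries carried markers of another population. In the injured CD31+ group, replicate 1 held 291.5 CPM of leukocyte markers against 26.6 and 25.6 CPM in replicates 2 and 3. Pdgfra, a stromal marker, was at 48.8 and 25.4 CPM in injured MuSC replicates 2 and 3 against 0.298 CPM in replicate 1, and at 6.31 CPM in injured CD45+ replicate 3 against 0 in replicates 1 and 2. The 10 stromal markers as a list went both ways in MuSC after injury (3 rose, 3 fell and 4 did not pass), with sums of 5038 to 5730 CPM before and 2035 to 2881 CPM after. Dcn (16.7, 354 and 256 CPM) and Smoc2 (1.64, 123 and 68.3 CPM) were also high in injured MuSC replicates 2 and 3, while Gsn, Dpt, Col3a1 and Pdgfrl were lower in each injured MuSC library than in any uninjured one. Where leaving out these 4 libraries ended a call of a member, the value without them is given beside it.

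**Figure D1:**
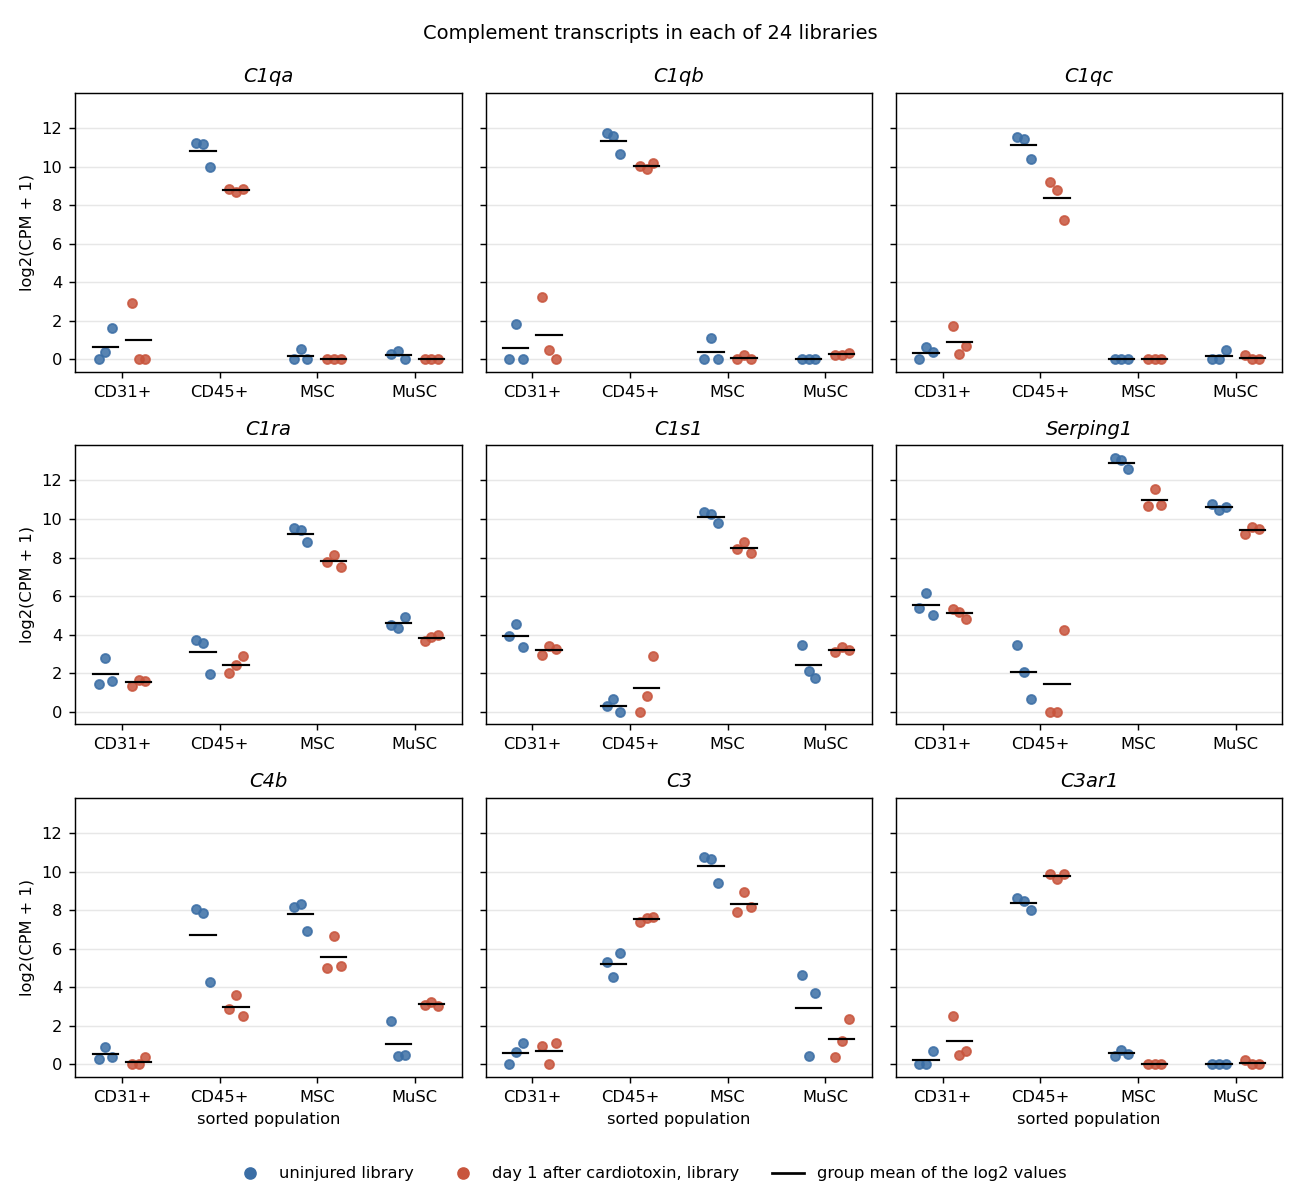
Level of each of the 9 complement genes in every library, as log2(CPM + 1), by sorted population (horizontal axis); blue points are uninjured libraries, red points are libraries from day 1 after cardiotoxin, and the black line is the mean of the 3 log2 values. C1qa, C1qb, C1qc and C3ar1 stand high only in CD45+ libraries, whereas C1ra, C1s1 and Serping1 stand highest in MSC libraries.

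The 9 genes divided between 2 of the populations. C1qa, C1qb, C1qc and C3ar1 were highest in CD45+ cells, which held over 99% of the sum of the 4 population means for each of them in both conditions (the lowest share was 99.5005% for C1qa after injury). C1ra, C1s1, Serping1, C3 and C4b had their highest mean in MSC in both conditions. Of the 54 comparisons between 2 populations (9 genes, 6 pairs), 39 passed the test in uninjured and 42 in injured muscle, against 50.1% and 53.1% of the same comparisons over all genes. For the single pairs used below, CD45+ cells against MSC called 56.8% of all tested genes before and 61.7% after injury, and MSC against MuSC called 40.7% and 33.6%. Because these are sorted bulk samples, fewer cells of one type and less RNA per cell cannot be told apart.

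After injury, 11 of the 36 combinations of gene and population passed the test, 2 upward and 9 downward. In CD45+ cells 5 of the 9 genes passed, where 34.5% of all tested genes did. Of these 2 rose and 3 fell, against 16% and 18.5% of all tested genes. In MSC 5 of 9 passed and all 5 fell, where 41.9% of all tested genes passed and 23.6% fell. In MuSC 1 of 9 passed and fell (38.8% of all tested genes passed and 17.5% fell), and in CD31+ cells 0 of 9 passed (23.4%). The libraries of the 2 conditions were fully separate for 6 genes in CD45+ cells, 6 in MSC, 4 in MuSC and 0 in CD31+ cells, where the shares over all tested genes were 43%, 55%, 49.5% and 37.3%. The median log2 fold change over the 9 genes was -0.92 in CD45+ cells, -2.003 in MSC, -0.81 in MuSC and 0.45 in CD31+ cells, where the medians over all tested genes were -0.12, -0.22, -0.04 and -0.04. The CD31+ median rests on genes whose group means were mostly below 5 CPM. In MSC and in MuSC, 4 of the 9 genes had means under 1 CPM in both conditions. Of these, C3ar1 in MSC (0.484 and then 0 CPM) and C1qb in MuSC (0 and then 0.190 CPM) are among the genes counted as fully separate.

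**Figure D2:**
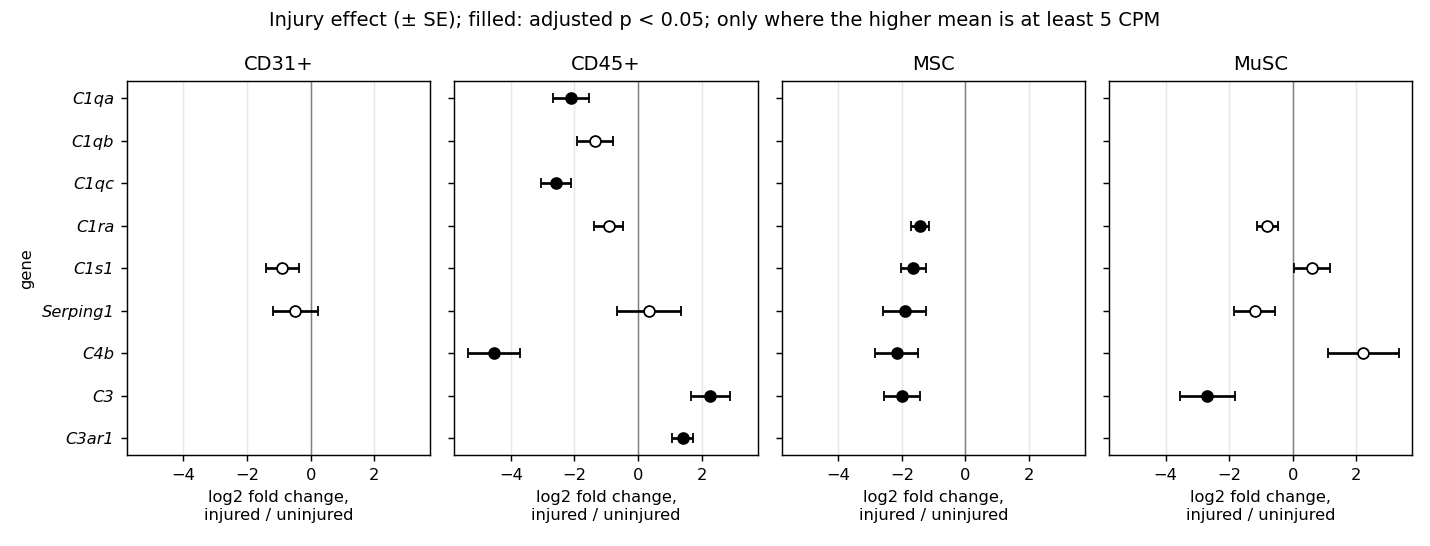
Log2 fold change, injured over uninjured (horizontal axis), for each complement gene (vertical axis) in each population, with 1 SE on each side; filled points passed edgeR's test at an adjusted p below 0.05, open points did not, and combinations whose higher group mean was under 5 CPM are left out. All 5 MSC points lie between -2.16 and -1.44, while CD45+ points lie on both sides of 0.

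C1q transcripts had the highest levels per kilobase among the 9 genes in uninjured CD45+ cells, and 2 of the 3 fell after injury. C1qa, which encodes the A chain, was at 2423, 2266 and 1005 CPM in the 3 uninjured CD45+ libraries and at 455, 413 and 449.8 CPM in the 3 injured ones. All injured libraries lay below all uninjured ones, and replicate 3 was the lowest of the uninjured. The mean went from 1898 ± 777 (SD, n = 3) to 439 ± 22.8 CPM, a log2 fold change of -2.11 (SE 0.57, edgeR adjusted p = 0.012). This call was lost with DESeq2 (adjusted p = 0.448), without the filter on low counts (0.0518) and without injured CD45+ replicate 2 (0.0507).

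C1qc, which encodes the C chain, was at 2973, 2726 and 1319 CPM in CD45+ libraries before and at 584, 438 and 146 CPM after injury. Here too all injured libraries were lower, and injured replicate 3 was well below the other injured libraries. The log2 fold change was -2.59 (SE 0.47, edgeR adjusted p = 0.000862), and without the 4 libraries that carried markers of another population it was -2.13 (adjusted p = 0.00128). This call held in every alternative run, DESeq2 included.

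C1qb, which encodes the B chain, had 3369, 3018 and 1632 CPM in CD45+ libraries before and 1026, 920.0 and 1163 CPM after injury. Its groups were also separate, but the log2 fold change of -1.37 (SE 0.56) missed the threshold in edgeR's test (adjusted p = 0.0761). It passed when only the CD45+ libraries were fitted (0.00389), without CD31+ injured replicate 1 (0.00969), without CD31+ injured replicate 3 (0.0422) and without the 4 libraries with other markers (0.0442). Whether C1qb fell less than C1qa or C1qc was not tested.

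The shares of C1qb and C1qc among the C1q counts lay apart in the 2 conditions, and those of C1qa overlapped. In the 3 uninjured CD45+ libraries C1qc gave 33.9%, 34.0% and 33.4% of the C1q counts, C1qb gave 38.4%, 37.7% and 41.2%, and C1qa the remaining 27.6%, 28.3% and 25.4%. In the injured libraries C1qc gave 28.3%, 24.7% and 8.32%, C1qb gave 49.7%, 52.0% and 66.1%, and C1qa gave 22.0%, 23.3% and 25.6%. These shares were not tested. The 8.32% of injured replicate 3 had an exact 95% binomial interval of 7.71% to 8.97%, which covers counting error only, since these PCR reads carry no molecular identifiers. Per kilobase of exon, the mean uninjured CD45+ levels were 2457 CPM for C1qb, 1825 CPM for C1qa and 1212 CPM for C1qc, and the injured ones 953, 422 and 202 CPM. The exons of C1qc together cover 1931 bases, but its longest protein-coding transcript has 1203 bases. For C1qa (1040 bases) and C1qb (1088 bases) these lengths are equal. The order of C1qc and C1qa in uninjured CD45+ cells therefore depends on the length used.

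**Figure D3:**
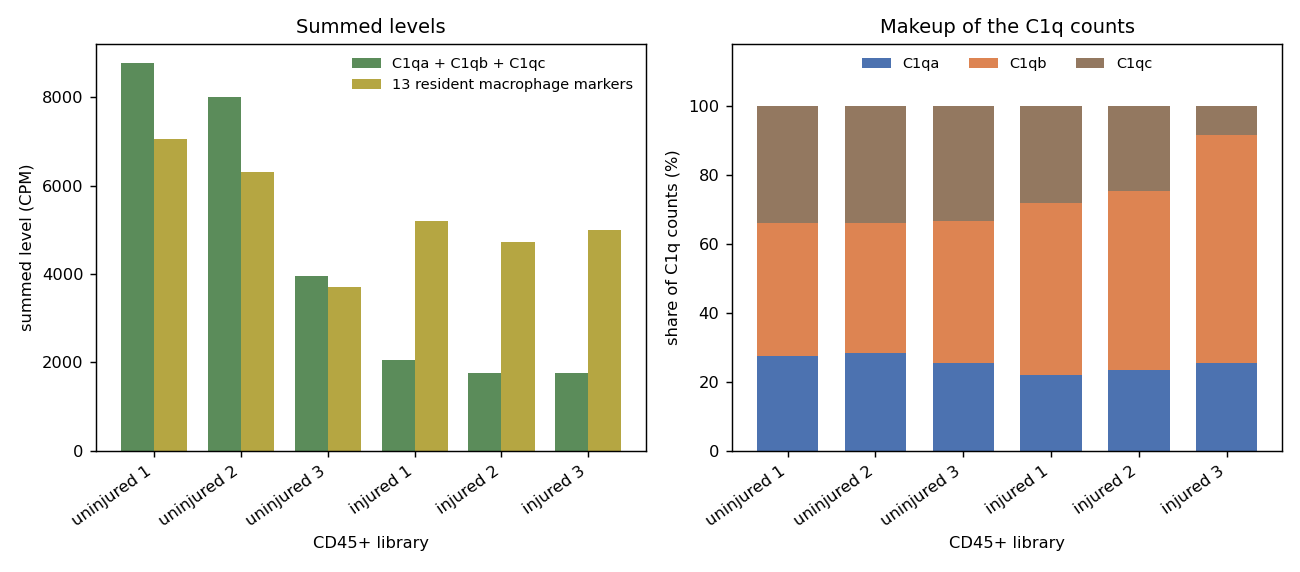
Left, summed CPM of the 3 C1q genes (green) and of 13 resident macrophage markers (yellow) in each CD45+ library; right, share of the C1q counts (percent) from each chain in the same libraries. The C1q sum is at most 2065 CPM in the 3 injured libraries and at least 3956 CPM in the 3 uninjured ones, and C1qb makes up 66.1% of it in injured replicate 3.

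Other markers of the CD45+ libraries moved as well. The summed C1q level was 8765, 8010 and 3956 CPM before and 2065, 1771 and 1759 CPM after injury. The sum of 13 resident macrophage markers was 7044, 6296 and 3699 CPM before and 5190, 4729 and 4992 CPM after, so the C1q groups separated and the marker sums did not. Of those 13 markers 5 fell (Cd163, Cx3cr1, Folr2, Lyve1 and Timd4), 2 rose and 6 did not pass the test. Uninjured replicate 3, the lowest in C1q, was also the lowest of the uninjured libraries in this sum. Neutrophil markers rose in 6 of 8 cases, with sums of 1162 to 3691 CPM before and 7752 to 11938 CPM after. Monocyte markers rose in 3 of 8 cases, with sums of 2957 to 3565 CPM before and 7797 to 8775 CPM after. All 10 lymphocyte markers fell, with sums of 781 to 3143 CPM before and 14.2 to 59.8 CPM after. Of the uninjured CD45+ libraries, replicate 3 had the highest neutrophil (3691 CPM), monocyte (3565 CPM), lymphocyte (3143 CPM) and endothelial (178.3 CPM) sums. The part of the shifts after injury, and of the makeup of this library, in the CD45+ results was not tested.

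Outside the CD45+ cells the C1q transcripts were near the detection limit. In MSC no library had more than 1.12 CPM of any C1q gene, and in MuSC none had more than 0.393 CPM. C1qc had no count in any of the 6 MSC libraries. The uninjured CD45+ mean of C1qc was at least 11646-fold higher than the level that 3 counts over the uninjured MSC group would give (0.201 CPM). In CD31+ libraries the highest values were all in injured replicate 1, with 6.61 CPM of C1qa, 8.46 CPM of C1qb and 2.31 CPM of C1qc. That is the library with leukocyte markers, where the leukocyte gene Tyrobp was at 24.2 CPM against 0.582 and 0.159 CPM in replicates 2 and 3. The other CD31+ libraries had at most 2.54 CPM of any C1q gene.

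C1ra and C1s1, which encode the proteases carried by C1q, were transcripts of a different population. In uninjured MSC, C1ra was at 737, 679 and 445 CPM and C1s1 at 1296, 1206 and 883 CPM. C1ra was at most 29.6 CPM and C1s1 at most 22.6 CPM in any library of the other populations. Both proteases had their highest level in cells with at most 1.12 CPM of the C1q chains.

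Both genes fell in MSC after injury. C1ra was at 221, 284 and 181 CPM in the injured MSC libraries, all below the uninjured ones, and its mean fell from 620 ± 155 to 229 ± 51.9 CPM (SD, n = 3; log2 fold change -1.44, SE 0.29, edgeR adjusted p = 0.000404). C1s1 was at 347, 439 and 303 CPM, again with no overlap, and its mean fell from 1128 ± 217 to 363 ± 69.6 CPM (log2 fold change -1.64, SE 0.40, edgeR adjusted p = 0.00306). Both calls held in every alternative run. Per kilobase of exon, MSC levels went from 208 to 76.7 CPM for C1ra and from 361 to 116 CPM for C1s1.

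The values of C1ra, C1s1 and C4b carry an uncertainty of counting. Of the stretches of 25 bases (the read length) in their transcripts, 63.48%, 57.71% and 54.45% also occurred in another gene, mostly the near copies C1rb, C1s2 and C4a. How reads that match both copies were treated is not given in the sources used here. The copies themselves had group means of at most 0.435 CPM (C1rb), 0.659 CPM (C1s2) and 2.09 CPM (C4a). C1s1 also overlaps an antisense gene, Gm16567, and the library method does not mark the strand. C1qa, C1qb, C1qc, C3 and Serping1 shared 0 such stretches with another gene, and C3ar1 shared 1.012%.

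Serping1, which encodes C1 inhibitor, had the highest level per kilobase of exon of the 9 genes in uninjured muscle. In MSC it was at 9135, 8425 and 6162 CPM before and at 1662, 2969 and 1679 CPM after injury. The groups did not overlap, and the mean fell from 7907 ± 1553 to 2103 ± 750 CPM (SD, n = 3; log2 fold change -1.91, SE 0.67, edgeR adjusted p = 0.0297). The call was lost with DESeq2 (0.113), without the filter on low counts (0.12), and without CD31+ uninjured replicate 1, any of the uninjured MSC libraries or MSC injured replicate 1 or 3 (0.0521 to 0.141). Per kilobase of exon, the MSC level went from 3401 to 905 CPM, above the 361 and 116 CPM of C1s1 and the 208 and 76.7 CPM of C1ra, the proteases that its product inhibits.

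MuSC were the other population with Serping1 above 100 CPM. The gene had 1749, 1419.9 and 1605 CPM in MuSC before and 587, 779 and 709.9 CPM after injury. Every injured library was below every uninjured one, but the log2 fold change of -1.20 (SE 0.66) missed the threshold when all 24 libraries shared one estimate of spread (edgeR adjusted p = 0.166). It passed when only the MuSC libraries were fitted (adjusted p = 3.07e-06) and without CD45+ injured replicate 3 (0.013), a library in which Serping1 was at 18.0 CPM against 0 in the other injured CD45+ libraries. Uninjured MSC exceeded uninjured MuSC by 2.31 on the log2 scale (SE 0.68, edgeR adjusted p = 0.0111). After injury the difference was 1.60 (SE 0.66, adjusted p = 0.074), with MSC libraries still all above MuSC libraries.

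In CD31+ cells Serping1 was at 40.2, 71.7 and 31.2 CPM before and at 39.5, 35.3 and 27.6 CPM after injury. These groups overlapped, and the log2 fold change of -0.48 (SE 0.70) did not pass (edgeR adjusted p = 0.67). In CD45+ cells it was at 9.97, 3.18 and 0.572 CPM before and at 0, 0 and 18.0 CPM after injury. The single high value was in injured replicate 3, where the stromal genes Dcn and Smoc2 were at 114 and 12.4 CPM against at most 1.26 CPM in replicates 1 and 2, and C1s1 was at 6.54 CPM against 0 and 0.735 CPM. The uninjured CD45+ libraries had 0.237, 0.578 and 0 CPM of C1s1, and its log2 fold change of 3.10 (SE 1.40) missed the threshold with edgeR (adjusted p = 0.0994) and passed with DESeq2 (0.0144). The fitted difference of Serping1 in CD45+ cells changed sign without injured replicate 3.

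C4b, the gene of complement component C4, was high in both MSC and CD45+ cells of uninjured muscle and fell in both. In MSC it was at 288, 321 and 122 CPM before and at 31.3, 99.5 and 33.3 CPM after injury. The groups did not overlap (log2 fold change -2.16, SE 0.67, edgeR adjusted p = 0.0159). This call was lost without MSC uninjured replicate 1 or 2 or MSC injured replicate 1 or 3 (adjusted p between 0.0665 and 0.107), without the filter (0.0825) and without the 4 libraries with other markers (0.0623).

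In CD45+ cells C4b was at 261, 229 and 18.3 CPM before and at 6.32, 11.03 and 4.67 CPM after injury. Uninjured replicate 3, low in C1q too, lay far below the other uninjured libraries but above every injured one. The log2 fold change was -4.53 (SE 0.81, edgeR adjusted p = 0.000341), and the call held in every alternative run, with log2 fold changes between -5.00 and -4.07. The uninjured CD45+ and MSC levels of C4b could not be told apart (log2 difference -0.52, SE 0.64, edgeR adjusted p = 0.516).

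In MuSC, C4b was at 3.68, 0.339 and 0.393 CPM before and at 7.44, 8.35 and 7.27 CPM after injury. The injured libraries lay above the uninjured ones, and the log2 fold change of 2.21 (SE 1.12) did not pass (edgeR adjusted p = 0.133). It passed with the MuSC libraries fitted alone (0.0114), with DESeq2 (0.0383) and without CD45+ uninjured replicate 3 (0.0429). Without the 4 libraries with other markers, which leaves 1 injured MuSC library, it was 2.01 (0.431). The stromal marker Pdgfra was at 0.298, 48.8 and 25.4 CPM in the same 3 injured libraries, and its part in the C4b values was not tested.

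C3, the central component, changed in opposite directions in 2 populations. In MSC it was at 1756, 1591 and 677 CPM before and at 235, 489 and 280.4 CPM after injury, with no overlap. The mean fell from 1342 ± 581 to 335 ± 136 CPM (SD, n = 3; log2 fold change -2.003, SE 0.57, edgeR adjusted p = 0.00913). The call was lost with DESeq2 (0.0612), without the filter (0.0558) and without uninjured replicate 1 (0.0543) or injured replicate 1 (0.0722) of the MSC.

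In CD45+ cells C3 was at 38.2, 22.0 and 54.4 CPM before and at 164, 194 and 195 CPM after injury. Every injured library lay above every uninjured one. The mean rose from 38.2 ± 16.2 to 184 ± 17.5 CPM (SD, n = 3; log2 fold change 2.27, SE 0.61, edgeR adjusted p = 0.00775), and DESeq2 gave an adjusted p of 0.0504. Without the 4 libraries with other markers the log2 fold change was 2.29 (adjusted p = 0.024).

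These opposite changes brought the populations closer. MSC held 96.4% of the sum of the 4 population means of C3 in uninjured muscle and 64.2% after injury. MSC exceeded CD45+ cells in C3 by 5.13 on the log2 scale before injury (SE 0.67, edgeR adjusted p = 4.11e-06). After injury the difference was 0.86 (SE 0.56, adjusted p = 0.195), although the injured MSC libraries still all lay above the injured CD45+ ones.

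C3 was also called in MuSC, at low levels. It was at 24.01, 0.339 and 11.8 CPM before and at 0.298, 1.28 and 4.15 CPM after injury. The groups overlapped, since uninjured replicate 2 was lower than injured replicates 2 and 3. The log2 fold change of -2.68 (SE 0.85, edgeR adjusted p = 0.0189) lost its call without MuSC uninjured replicate 1 (0.181), injured replicate 1 (0.0818) or injured replicate 2 (0.0679), without the filter (0.0619), with the MuSC libraries fitted alone (0.136) and without the 4 libraries with other markers (0.0648), which leaves 1 injured MuSC library. In CD31+ libraries C3 was at most 1.18 CPM.

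C3ar1, the receptor for C3a, was found in CD45+ cells and rose there. It was at 396, 357 and 255 CPM before and at 929, 781 and 949 CPM after injury, with no overlap. The mean rose from 336 ± 73.2 to 886 ± 91.9 CPM (SD, n = 3; log2 fold change 1.40, SE 0.32, edgeR adjusted p = 0.00325). DESeq2 gave an adjusted p of 0.142, and no other alternative lost the call. The receptor thus rose in the same libraries in which C3 rose and C1qa, C1qc and C4b fell.

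Outside CD45+ cells C3ar1 had at most 0.672 CPM in MSC and 0.149 CPM in MuSC, and it had 0 counts in the 3 injured MSC libraries. The injured CD45+ mean was at least 5538-fold higher than the level of 3 counts over the injured MSC group. In CD31+ cells it was at 0, 0 and 0.589 CPM before and at 4.61, 0.388 and 0.635 CPM after injury, with the highest value again in the library with leukocyte markers.

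In MSC the 5 genes with levels above 5 CPM (C1ra, C1s1, Serping1, C4b and C3) all fell. The sum of 10 stromal markers went from 200341, 182728 and 154613 CPM to 37619, 54686 and 38559 CPM in the same libraries. Of those markers 6 fell and 4 did not pass the test, and their median log2 fold change was -2.21, beside -2.003 for the 9 complement genes. The latter median includes 4 genes with means under 1 CPM in MSC in both conditions. The 5 genes above 5 CPM had log2 fold changes between -2.16 and -1.44. Injured replicate 2 was the highest of the injured MSC libraries in the stromal sum and in each of the 5 complement genes. Uninjured replicate 3 was the lowest of its group in all of these. The part of this shift in the complement results was not tested. Leukocyte markers summed to between 1.26 and 4.48 CPM in the 6 MSC libraries.

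In MuSC, C1ra was at 21.5, 19.0 and 29.6 CPM before and at 11.6, 14.0 and 14.8 CPM after injury. The groups did not overlap, and the log2 fold change of -0.81 (SE 0.33) missed the threshold (edgeR adjusted p = 0.0611). It passed with RLE scaling (0.0348), with DESeq2 (0.0254) and with the MuSC libraries fitted alone (0.0129). It also passed without any of CD31+ uninjured replicates 1 and 2, CD45+ uninjured replicate 3, the injured CD45+ libraries, the uninjured MSC libraries or MSC injured replicate 1 (0.00611 to 0.0355). In CD45+ cells C1ra was at 12.1, 10.99 and 2.86 CPM before and at 3.03, 4.41 and 6.31 CPM after injury, in overlapping groups (edgeR adjusted p = 0.125), and passed without uninjured replicate 3 (0.0149). In MuSC, C1s1 was at 10.1, 3.39 and 2.36 CPM before and at 7.59, 9.15 and 8.31 CPM after, in overlapping groups (log2 fold change 0.60, edgeR adjusted p = 0.441).

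In CD31+ cells none of the 9 genes passed edgeR's test, and 1 had an unadjusted p under 0.05. DESeq2 called 1 gene, C3ar1 (adjusted p = 0.0367), whose highest value was in the library with leukocyte markers. In edgeR's test C3ar1 passed without CD31+ injured replicate 2 (0.023) or 3 (0.026). C1s1 was at 14.0, 22.6 and 9.43 CPM before and at 6.77, 9.51 and 8.57 CPM after injury, with a log2 fold change of -0.89 (edgeR adjusted p = 0.235). 

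Whether the injury response differed between the 4 populations was tested for each gene with an F test in the same edgeR fit, which called 35.9% of all tested genes. Of the 9 members 3 passed: C3 (adjusted p = 0.00175), C4b (0.00563) and C1s1 (0.0165). For C3, the change in CD45+ cells exceeded that in MSC by 4.27 (SE 0.83, adjusted p = 0.000945) and that in MuSC by 4.95 (SE 1.04, adjusted p = 0.00192) on the log2 scale. For C4b, the change in CD45+ cells was below that in MuSC (difference -6.74, SE 1.33, edgeR adjusted p = 0.00115), as was the change in MSC (-4.37, SE 1.27, adjusted p = 0.0448). For C1s1, the CD45+ change exceeded the MSC change by 4.74 (SE 1.39, edgeR adjusted p = 0.017), and the CD45+ part of it rests on injured replicate 3. The pairs of populations named here differed in 25.1% (CD45+ and MSC), 24.4% (CD45+ and MuSC) and 7.73% (MSC and MuSC) of all tested genes. Without the 4 libraries with other markers, a fit with 1 injured MuSC library that is assumed to vary like the other groups, C4b (0.126) and C1s1 (0.23) no longer passed the F test, and C1s1 also failed without CD45+ uninjured replicate 3 (0.0533) or MSC injured replicate 1 (0.0512) and without the filter (0.0664). C3ar1 (adjusted p = 0.122) passed in 3 of 29 alternatives: without CD31+ injured replicate 1 (0.00897), without the 4 libraries (0.0169) and with DESeq2 (0.00397). C3 passed in all 29 alternatives, with adjusted p-values between 0.000274 and 0.0101.

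Of 48 other complement genes listed by role, 27 passed the filter on low counts. In CD45+ cells 5 of these rose and 8 fell, where 34.5% of all tested genes passed. The MSC counts were 1 up and 13 down (41.9% of all tested genes passed), the MuSC counts 1 up and 3 down (38.8%), and the CD31+ counts 2 up and 2 down (23.4%). The medians of the log2 fold changes in these populations, in the same order, were -1.03, -1.16, -0.79 and -0.22.

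**Figure D4:**
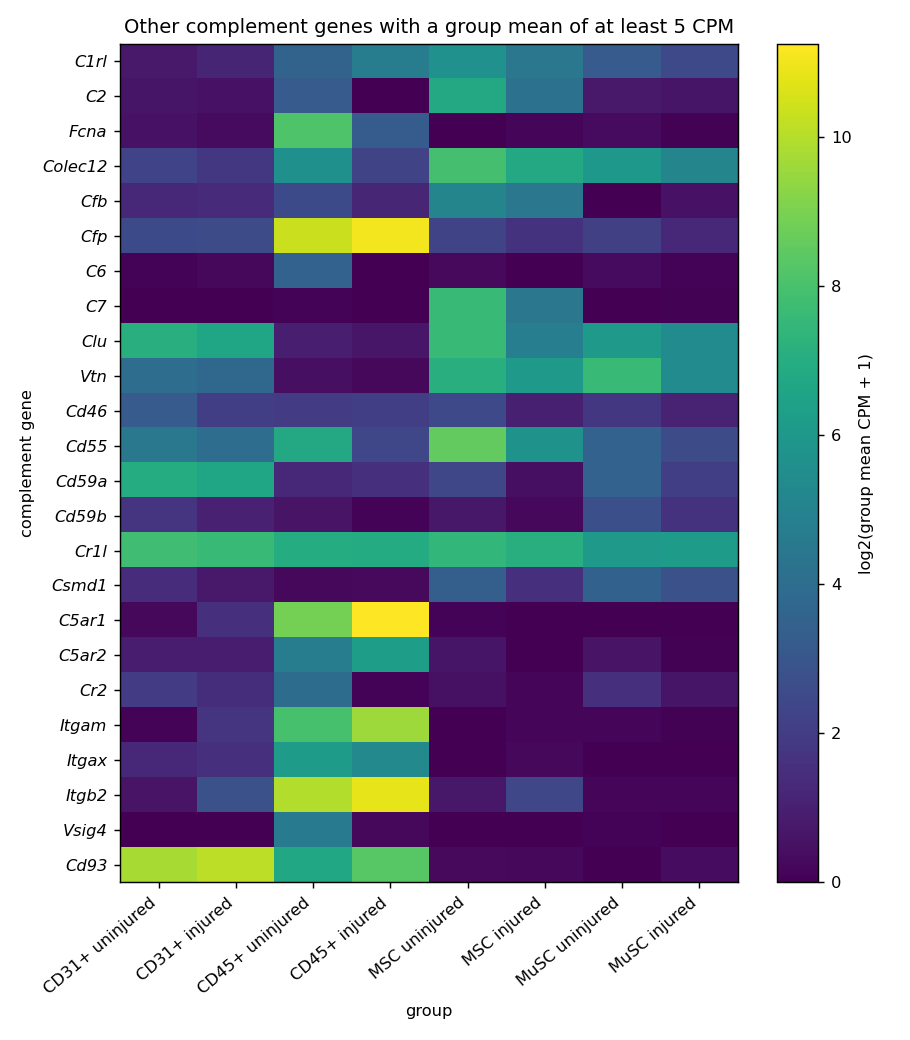
Group mean level, as log2(mean CPM + 1) (colour), of 24 other complement genes (rows), each with a group mean of at least 5 CPM in some group, in each of the 8 groups (columns). C5ar1, Itgb2 and Cfp are brightest in CD45+ groups, Cd93 in CD31+ groups, and C7 is above 5 CPM only in MSC.

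Genes of recognition and initiation had different sources. Fcna encodes ficolin A, a lectin that starts the lectin pathway. Its level in CD45+ cells fell from 284 ± 192 to 8.55 ± 5.01 CPM (SD, n = 3; log2 fold change -5.04, edgeR adjusted p = 3.62e-05). Colec12, a scavenger receptor with a collectin domain, fell in the same cells from 49.6 ± 31.0 to 3.93 ± 2.14 CPM (log2 fold change -3.65, edgeR adjusted p = 2.12e-05). C2, the protease that joins C4b in the classical C3-cutting enzyme, fell in MSC from 110 ± 58.2 to 17.6 ± 15.7 CPM (log2 fold change -2.64, edgeR adjusted p = 0.00307). Of the 6 tested genes of this role 3 fell in MSC and none rose, where 23.6% of all tested genes fell. In CD45+ cells 3 fell and 1 rose, where 18.5% and 16% of all tested genes did.

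In the alternative and terminal pathways, Cfp, which encodes properdin, the protein that stabilises the alternative C3-cutting enzyme, had 1291 ± 387 CPM in CD45+ cells before injury and 2127 ± 36.7 CPM after, a difference that did not pass (edgeR adjusted p = 0.126). Cfb, the factor B protease of that enzyme, was at 33.3 ± 11.2 and 21.0 ± 10.4 CPM in MSC (edgeR adjusted p = 0.382). C7, a component of the membrane attack complex, fell in MSC from 196 ± 79.1 to 21.0 ± 14.2 CPM (log2 fold change -3.23, edgeR adjusted p = 0.00027).

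Regulators fell in MSC more often than they rose. Of the 6 tested membrane regulators 5 fell there and none rose, where 23.6% of all tested genes fell. Some of these 5 had uninjured MSC means under 5 CPM. Clu, which encodes clusterin, an inhibitor of the membrane attack complex, fell from 194 ± 49.0 to 26.8 ± 21.9 CPM (log2 fold change -2.86, edgeR adjusted p = 8.43e-05). Cd55, which encodes decay-accelerating factor, fell in MSC from 377 ± 35.9 to 52.5 ± 14.7 CPM (log2 fold change -2.85, edgeR adjusted p = 2.42e-05). In CD45+ cells Cd55 fell from 109 ± 79.9 to 4.28 ± 3.32 CPM (log2 fold change -4.65, edgeR adjusted p = 2.44e-06). Vtn, which encodes vitronectin, also an inhibitor of the membrane attack complex, was the only one of these 48 genes at 20 CPM or more that passed in MuSC, where it fell from 197 ± 16.8 to 42.2 ± 6.81 CPM (log2 fold change -2.22, edgeR adjusted p = 7.36e-07). Cr1l, a membrane regulator of C3 that rodents express widely, had group means between 64.4 and 222 CPM in all 8 groups. It was 1 of the 5 called lower in MSC (log2 fold change -0.38, edgeR adjusted p = 0.0234), and 14 alternative runs lost that call.

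Of 8 tested receptors, 4 rose and 2 fell in CD45+ cells, where 16% and 18.5% of all tested genes did. C5ar1, the receptor for C5a, named here after its values were seen, was at 475 ± 68.3 CPM before and 2437 ± 268 CPM after injury (log2 fold change 2.36, edgeR adjusted p = 0.00104, DESeq2 adjusted p = 0.257), and C5ar2, Itgam and Cd93 were the others that rose. Vsig4, a macrophage receptor for C3b, fell from 24.5 ± 12.3 to 0.166 ± 0.144 CPM (log2 fold change -7.03, edgeR adjusted p = 3.63e-05), and Cr2, a B cell receptor for C3 fragments, also fell. These receptors moved in the libraries in which neutrophil and monocyte markers rose and lymphocyte markers fell. In CD31+ cells, Itgam and Itgb2, which encode the chains of complement receptor 3, were called upward with injured means of 2.20 and 5.91 CPM, in a group whose replicate 1 carried leukocyte markers. Itgam was at 3.9996, 0.388 and 2.22 CPM and Itgb2 at 14.9, 1.55 and 1.27 CPM in the 3 injured libraries. Without the 4 libraries with other markers Itgam still passed (adjusted p = 0.0201) and Itgb2 did not (0.19). Cd93 had its highest level in CD31+ cells, with 868 ± 39.5 CPM before and 1107 ± 70.8 CPM after injury (edgeR adjusted p = 0.0864).

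The genes whose pattern over the 8 group means was most like that of C1q were sought among 10385 genes with at least 20 CPM in some group. For the mean of the 3 C1q genes they were Fgd2 (Pearson r = 0.9999), Treml4 (0.9991), Gpr183 (0.9988), Ly86 (0.9985) and Ptpro (0.9984). For C3 they were Mia3 (0.9746), Rnase4 (0.9655), C1rl (0.9644), Tmem119 (0.9638) and Selenos (0.9621). These values describe 8 means of log2(CPM + 1), the C1q ones dominated by the contrast between CD45+ and other cells. Fgd2 fell from 343 to 117 CPM in CD45+ cells and had at most 1.27 CPM as a mean elsewhere. Rnase4, like C3, had its highest mean in uninjured MSC (2245 CPM, then 547 CPM after injury), but unlike C3 its CD45+ mean was lower after injury (368 and then 282 CPM). Tmem119 had a CD45+ mean of 27.0 CPM before and 58.1 CPM after injury and an MSC mean of 279 CPM before and 122 CPM after.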

How the data were processed

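RNA was measured in 24 libraries, 3 in each of 8 groups. The deposited values are raw read counts per gene symbol, made by the authors with STAR 2.5.4 and featureCounts on mouse build mm10, per the submitters' processing notes. For the gene annotation, the strand setting and reads with several matches, the sources used here state nothing. Library preparation used an oligo(dT) primer and PCR and stated no molecular identifiers, per the labels' protocols.

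Counts of all genes entered edgeR 4.0.16 in R 4.3.3 (TMM scaling, filterByExpr over the groups, 1 coefficient per group, robust quasi-likelihood fit), and p-values were adjusted over the 16263 genes tested. Library totals ran from 2301202 to 7649841 counts, the residual degrees of freedom were 16 and the common biological coefficient of variation was 0.224. The main tests fitted all 24 libraries. Alternatives were RLE scaling, no filter, a replicate block, each library left out in turn, each population or condition fitted alone, and DESeq2 1.42.0. A fit without 4 libraries that carry markers of another population was added after seeing the data. The code was tested on simulated data.

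The members and lists were chosen with earlier results of these data known. Named were all 9 members, up to 4 other pathway genes per population that passed with at least 20 CPM (those with the largest change), the 5 genes most like C1q and C3, and marker genes. Coordinates come from GENCODE and promoter sequences from RefSeq (both GRCm38, the assembly of mm10). RefSeq's table gave no promoter for C1qa, C4b or Serping1. Protein sequences were not used here. Some listed genes are not reported here by name.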

Additional observations from a re-analysis of the deposited data

Results flagged for a closer look

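The injury responses of 3 of the 9 genes differed between the 4 populations by edgeR's F test of the difference itself, which called 35.9% of all tested genes. C3 (adjusted p = 0.00175) rose in CD45+ cells from a mean of 38.2 to 184 CPM and fell in MSC from 1342 to 335 CPM. C3 passed in all 29 alternatives, with adjusted p-values from 0.000274 to 0.0101. C4b (adjusted p = 0.00563) fell in CD45+ cells from 169 to 7.34 CPM and in MSC from 243 to 54.7 CPM, and was at 1.47 and then 7.69 CPM in MuSC, where the increase did not pass by itself. C4b passed in 28 of 29 alternatives and failed without the 4 libraries that carry markers of another population (0.126), a fit in which 1 injured MuSC library remains and is assumed to vary like the other groups. C1s1 (adjusted p = 0.0165) fell in MSC from 1128 to 363 CPM, and its CD45+ level of 6.54 CPM in injured replicate 3 stood beside 0 and 0.735 CPM in the other injured CD45+ libraries. C1s1 passed in 25 of 29 alternatives. The part of stromal RNA in the C1s1 and C4b results was not tested.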

How the results depend on the processing

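Counts of members or pathway genes that passed moved by more than 1.5 times, or to or from 0, in 35 cases. In the other 294 they stayed the same or moved by at most 1.5 times. Of the values for single genes, 1113 kept direction and call, 61 lost the call, 23 gained it and 3 reversed. With DESeq2, members that passed numbered 1 in CD31+ cells (0 with edgeR), 3 in CD45+ cells (C1qc, C4b and C1s1, against 5 with edgeR) and 3 in MuSC (1 with edgeR). Without the filter on low counts they numbered 2 in MSC (5 with the filter) and 0 in MuSC. In MuSC, RLE scaling gave 2 members, and the MuSC libraries fitted alone gave 3 members and 7 other pathway genes (4 with all libraries). Without the 4 libraries with markers of another population, other pathway genes in CD31+ cells numbered 2 (4 with all libraries) and members in MuSC 0. Leaving out 1 library at a time, members that passed ranged from 0 to 1 in CD31+ cells, 2 to 6 in MSC and 0 to 3 in MuSC, and other pathway genes from 2 to 6 in CD31+ cells, 7 to 14 in MSC and 2 to 6 in MuSC. The lowest values came without CD31+ uninjured replicate 3 (2), without MSC injured replicate 1 (2 members, 7 pathway genes) or uninjured replicate 1 (2 members), and without MuSC uninjured replicate 1, injured replicate 1 or injured replicate 2 (0 members). The log2 fold change of Serping1 in CD45+ cells (0.35) reversed to -0.08 without CD45+ uninjured replicate 3, to -7.67 without CD45+ injured replicate 3 and to -7.59 without the 4 libraries. Its range over the fits that left out 1 library was -7.67 to 1.70. At least 1 of the 3 reversed fits passed edgeR's test as a fall, although the main fit did not pass. In the last 2 reversed fits the injured libraries had 0 counts, so the values depend on the fit and are no bound. In CD31+ cells, RLE scaling moved the all-gene median (log2) from -0.04 to -0.15, and turned the split of CD31+ calls from 2298 up and 1512 down to 1926 up and 2058 down. No member with a group mean of at least 5 CPM changed direction with it.

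The replicate numbers were not taken to pair the samples: same-numbered deviations within a population correlated between -0.08 and 0.09 over 12 pairs. Between populations of 1 condition, 5 of 36 same-numbered pairs were over 0.1 (mean 0.04, highest 0.18), against 0 of 72 pairs with different numbers (mean -0.02). With a replicate block, members that passed stayed at 0, 5, 5 and 1 in CD31+ cells, CD45+ cells, MSC and MuSC, population pairs were 38 and 40 (39 and 42 without it), and 4 members differed in response (C1qc joined, adjusted p = 0.0173) instead of 3. That block gave each replicate number 1 effect over all 24 libraries, so it does not model sharing within 1 condition only. A block for replicate numbers within each condition was not fitted. No alternative run moved the pair counts or the response count by over 1.5 times. Levels under about 1 CPM rest on few counts, since 3 counts correspond to between 0.389 and 1.02 CPM depending on the library.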
